A study of Mus musculus with 16 samples.

Results

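The retinal pigment epithelium (RPE) of mice exposed to bright light was compared with the RPE of control mice, on 8 of the 16 arrays of the series. The 8 arrays were chosen by the tissue and treatment that their labels give: 4 arrays of light-exposed RPE and 4 of control RPE, 1 array per mouse. All mice were male Balb/cJ, an albino strain, and 10 weeks old. The light group received cool white fluorescent light of 10000 lux for 18 hours and was killed 4 hours after the light ended, and the control group stayed on a cycle of light and dark of 12 hours. The other 8 arrays hold the neurosensory retina (NSR), the neuronal part of the eye with the photoreceptors, of the same 8 mice. No strain, allele or agent other than the light differed between the groups by the labels, and the effect of the brightness cannot be told apart from that of the altered light schedule. The sources used here do not give the hour at which control mice were killed.

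The RPE is a single layer of pigmented epithelial cells that faces the tips of the photoreceptors on one side and the choroidal vessels on the other. It regenerates the 11-cis retinal chromophore of the visual pigments in the visual cycle, takes up shed photoreceptor outer segments, moves ions, water, bicarbonate and lactate across the layer, and its tight junctions form the outer blood-retina barrier. In an albino strain the tyrosinase enzyme is not functional, so that the pigment granules form without melanin although their genes are expressed.

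Values are the deposited log2 expression values, on which a difference of 1 is a 2-fold change, and each gene is represented by 1 transcript cluster, the probe set of a transcript on this array. A gene was called changed where limma, a linear model with a spread shared across genes, gave an adjusted p under 0.05 over all 19938 genes. The labels checked out against the tissue's markers. The median of 28 RPE markers was 11.72 ± 0.08 in the control group, 11.31 ± 0.11 in the light group (SD, n = 4 each) and 6.45 as the mean of control NSR. Rod markers, at 11.67 in control NSR, had medians of 7.60 to 8.32 in control and 7.38 to 8.58 in light-exposed arrays, so that the isolated RPE held some photoreceptor RNA. There were 3 arrays that stood apart in markers of neighbouring tissues. RPE control 2 had a lens marker median of 7.48 against 6.16 to 6.25 in the other controls, RPE light 2 a cornea and ciliary marker median of 7.31 against 6.13 to 6.30 in the other light arrays, and RPE light 1 a bipolar cell marker median of 7.25 against 6.28 to 6.41. RPE light 1 also had the highest rod marker median, 8.58. Counts were recomputed without these 3 arrays, and for gene lists with at least 3 called genes in a direction they are given where they moved by more than 1.5-fold. Precision is limited by the small number of arrays.

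**Figure D1:**
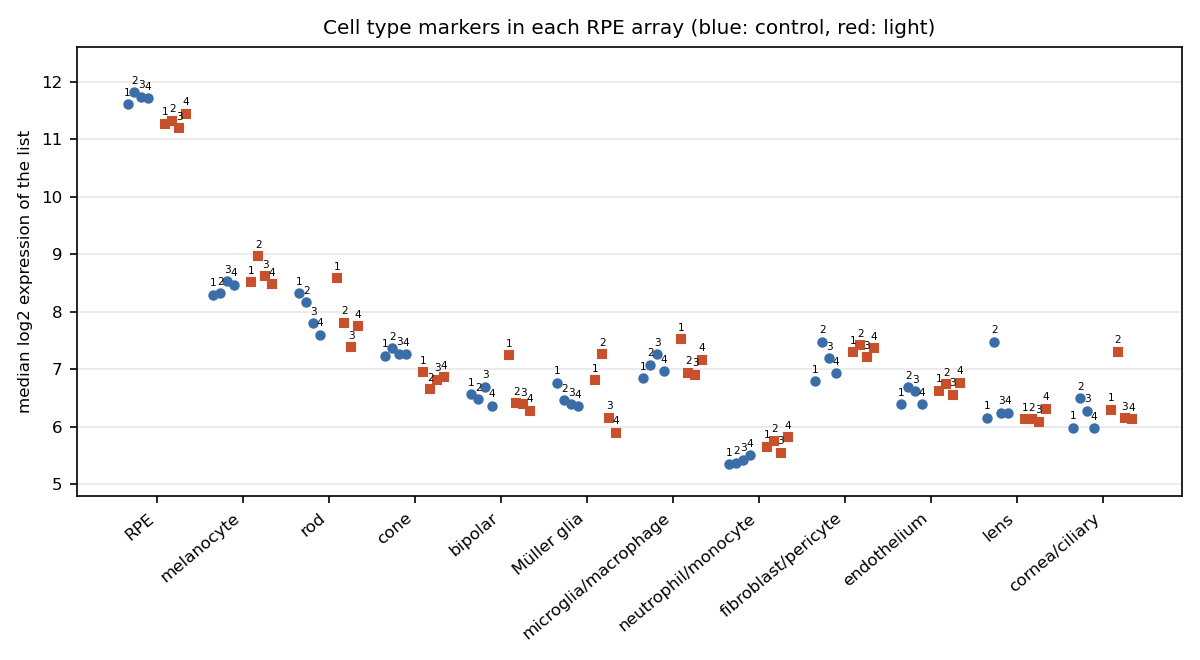
Median log2 expression of each cell type marker list (y axis) in each RPE array, with control mice as blue circles, light-exposed mice as red squares and the number of the mouse beside each point. The RPE markers lie far above the other lists, between 11.61 and 11.82 in control and between 11.19 and 11.44 in light-exposed arrays, and single arrays stand apart for lens, cornea and ciliary, and bipolar markers.

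In the RPE, 4 hours after the light, most measured genes of NF-kB signalling, antigen processing, ribosome production, translation and the proteasome were called higher, and most of the visual cycle, the melanosome and cholesterol synthesis were called lower. The 4 largest rises were those of 2 serpins and 2 metalloproteinases. Of 19938 genes 3510 were called (17.6%), of which 1810 rose (9.08%) and 1700 fell (8.53%). For gene lists given below without a share of their own, these shares of all genes are the ones to set the counts beside. The arrays of the groups did not overlap for 4412 genes (22.1%). Most changes were small: 2467 of the called genes changed less than 1.5-fold, and the median size of a called change was 0.435 on the log2 scale. At least 2-fold changes were called for 152 genes that rose (0.762%) and 143 that fell (0.717%). The extremes were not symmetric, with 27 genes that rose and 3 that fell at least 4-fold, and 9 that rose at least 8-fold. Without the 3 arrays that stood apart, 998 genes rose and 1058 fell, in a fit of 5 arrays. These are bulk samples, so that fewer cells of a type and less RNA per cell cannot be told apart, and this holds for each fall given here.

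The largest rise was that of Serpina3n, an acute-phase inhibitor of serine proteases. It stood at 6.05, 6.49, 6.64 and 6.70 in RPE control 1 to 4 and at 12.55, 12.50, 12.49 and 12.36 in RPE light 1 to 4. The 4 light arrays lay within 0.2 of each other and far above every control array. The difference was 6.005 (SE 0.13), a 64.2-fold rise (limma adjusted p = 1.45e-08). Mmp3, the matrix metalloproteinase stromelysin, read 5.12, 5.64, 5.38 and 4.96 in control and 10.63, 10.71, 11.28 and 10.42 in light-exposed RPE, a 44.8-fold rise (log2 5.49, SE 0.19, adjusted p = 2.89e-07). Its control mean lay below 5.59, among the dimmest 25% of genes, so that the size of the fold is uncertain. Serpinb1a, an inhibitor of neutrophil elastase and related proteases, had control values of 5.64, 5.74, 6.08 and 6.23 and light values of 10.92, 11.11, 11.50 and 10.87 (36.1-fold, log2 5.17, SE 0.16, adjusted p = 1.44e-07). The gap between the groups was again many times the spread within them.

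Mmp12, the macrophage metalloelastase, was at 5.76, 6.15, 6.30 and 5.93 in control and 10.40, 10.68, 11.47 and 10.00 in light-exposed RPE (24.3-fold, log2 4.60, SE 0.26, adjusted p = 5.64e-06). RPE light 3 was the highest of the 4 light arrays for Mmp12, as it was for Mmp3 and Serpinb1a. Lcn2, lipocalin 2, which binds the iron carriers of bacteria, rose 23.7-fold from 5.75 ± 0.14 to 10.32 ± 0.37 (SD, n = 4, adjusted p = 2.89e-07). Gsta3, a glutathione S-transferase, was already moderately high in control arrays at 7.89, 7.89, 8.20 and 8.27, and reached 11.25, 11.31, 11.68 and 11.22 (9.88-fold, adjusted p = 3.86e-07). Timp1, an inhibitor of the metalloproteinases, rose 9.87-fold (log2 3.30, SE 0.21), and Vcam1, an adhesion molecule for leukocytes, 9.61-fold (log2 3.26, SE 0.18). The rest of the 12 largest rises, among genes with an established name, were Slc15a3, a lysosomal carrier of histidine and dipeptides (a difference of 2.81), Cd68, a lysosomal membrane protein of phagocytes (6.78-fold), Sulf2, which removes sulphate from heparan chains outside the cell (5.96-fold), and Gbp5, an interferon-induced GTPase (5.37-fold). Gbp5 was dim in control RPE, at a mean of 4.66, so that its fold is uncertain. These 12, like the 12 largest falls, were taken from called genes whose light and control arrays do not overlap, so that their lack of overlap follows from the choice. Across all genes, 22.1% did not overlap.

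The 4 largest falls were in genes that were strongly expressed in control RPE, of which Lrit2 read higher still in control NSR (10.56, mean of 4 arrays). Sostdc1, a secreted antagonist of BMP and Wnt signalling, stood at 11.97, 12.00, 11.96 and 11.91 in RPE control 1 to 4 and at 9.42, 9.41, 8.74 and 9.65 in RPE light 1 to 4. The controls were nearly identical, and the light arrays were all lower and spread over a wider range, with RPE light 3 the lowest. Sostdc1 fell by 2.65 on the log2 scale (SE 0.16, 6.29-fold, adjusted p = 8.85e-06). Lrit2, a leucine-rich transmembrane protein, had control values of 10.00, 9.93, 9.96 and 9.79 and light values of 7.94, 7.37, 6.80 and 7.58 (5.65-fold lower, adjusted p = 4.01e-05). Trhde, the peptidase that degrades thyrotropin-releasing hormone, went from 10.83, 10.84, 10.77 and 10.74 to 8.96, 8.61, 8.19 and 9.01 (4.29-fold lower, adjusted p = 3.25e-05). Dapl1, a death-associated-protein-like gene, went from 11.35, 11.33, 11.24 and 11.22 to 9.74, 9.64, 8.55 and 9.39 (3.88-fold lower, adjusted p = 0.00024). For each of these 4 genes RPE light 3 was the lowest array, the array that was highest for Mmp3, Mmp12 and Serpinb1a.

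Tmem72, a transmembrane protein, fell 3.88-fold, and Nqo1, a quinone reductase of the antioxidant defence, 3.76-fold, from 9.31 ± 0.14 to 7.40 ± 0.34 (SD, n = 4, adjusted p = 4.51e-05). Syt1, the calcium sensor of synaptic vesicles, read 9.34, 9.31, 9.31 and 9.46 in the controls and 8.92, 7.25, 6.61 and 7.19 after light. RPE light 1, the array with the highest rod and bipolar cell markers, lay close to the controls for Syt1. The difference was -1.86 (SE 0.39, adjusted p = 0.00822), and -2.47 without the 3 arrays that stood apart. The remaining falls among the 12 largest were Stox1, a winged-helix DNA-binding protein (3.52-fold), Stk33, a serine/threonine kinase (3.44-fold), Cldn2, a claudin that forms cation pores (3.30-fold), Epha7, an ephrin receptor (3.29-fold), and Pdgfd, a platelet-derived growth factor (3.15-fold). Of the 12, Lrit2, Syt1 and Epha7 had higher means in control NSR (10.56, 11.76 and 8.40) than in control RPE, and the rest had lower ones. The part of retinal RNA in these falls was not tested.

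**Figure D2:**
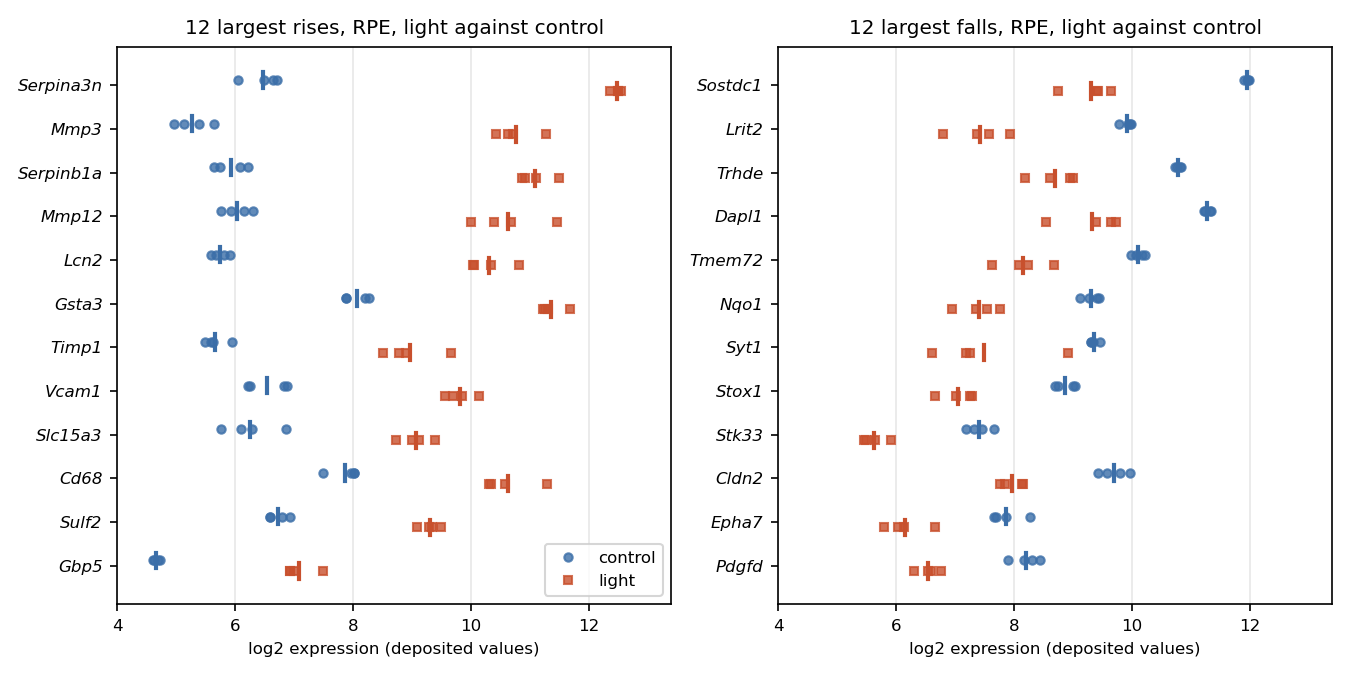
Deposited log2 expression (x axis) of the 12 genes that rose most and the 12 that fell most, with 1 point per array (blue circles, 4 control; red squares, 4 light-exposed) and a vertical bar at each group mean. The 24 genes were chosen among those whose groups do not overlap. Control values of Sostdc1, Trhde and Dapl1 are tightly clustered while light values are spread.

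Promoters of the leading genes are shown because these genes moved most and their upstream sequence is where shared motifs could be looked for. The windows are RefSeq sequences of the GRCm38.p6 assembly, 250 bases before an annotated start, read 5′ to 3′ on the gene's strand. The 3 largest rises and falls with an entry in that table are given, with matches to a searched motif in capitals. Serpina3n lies at chr12:104406458-104406707 on the plus strand and held no searched motif. Mmp3, at chr9:7445572-7445821 on the plus strand, holds an AP-1 motif that begins at position -46 from the start. Mmp12 has 2 annotated starts, both on the plus strand: the first window, chr9:7344147-7344396, holds a kB motif at -129, and the second, chr9:7347124-7347373, an AP-1 motif at -44. Of the falls, Lrit2 (chr14:37067779-37068028, plus strand) holds an OTX motif at -37 (both of its windows in the table overlap, only the first is printed, and both lie inside the annotated gene rather than at its outer end), and neither Trhde (chr10:114802303-114802552, minus strand) nor Dapl1 (chr2:59484403-59484652, plus strand) held any.
Serpina3n: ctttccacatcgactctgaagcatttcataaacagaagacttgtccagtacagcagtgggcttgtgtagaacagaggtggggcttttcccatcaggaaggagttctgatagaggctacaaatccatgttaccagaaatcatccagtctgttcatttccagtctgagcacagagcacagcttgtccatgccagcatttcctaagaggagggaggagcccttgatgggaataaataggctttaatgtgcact
Mmp3: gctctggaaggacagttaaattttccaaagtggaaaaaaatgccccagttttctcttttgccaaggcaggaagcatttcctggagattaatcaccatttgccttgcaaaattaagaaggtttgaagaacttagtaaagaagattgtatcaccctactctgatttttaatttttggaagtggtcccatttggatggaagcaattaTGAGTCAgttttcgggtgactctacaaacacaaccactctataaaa
Mmp12, first start: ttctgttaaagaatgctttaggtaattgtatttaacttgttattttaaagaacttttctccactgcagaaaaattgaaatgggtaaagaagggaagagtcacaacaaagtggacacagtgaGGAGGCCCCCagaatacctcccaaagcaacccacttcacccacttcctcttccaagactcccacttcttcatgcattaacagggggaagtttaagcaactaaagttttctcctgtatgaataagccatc
Mmp12, second start: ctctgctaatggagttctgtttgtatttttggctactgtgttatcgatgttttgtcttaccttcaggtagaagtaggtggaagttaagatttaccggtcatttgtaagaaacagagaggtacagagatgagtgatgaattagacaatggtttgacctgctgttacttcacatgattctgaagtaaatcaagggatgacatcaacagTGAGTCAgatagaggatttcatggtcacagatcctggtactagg
Lrit2: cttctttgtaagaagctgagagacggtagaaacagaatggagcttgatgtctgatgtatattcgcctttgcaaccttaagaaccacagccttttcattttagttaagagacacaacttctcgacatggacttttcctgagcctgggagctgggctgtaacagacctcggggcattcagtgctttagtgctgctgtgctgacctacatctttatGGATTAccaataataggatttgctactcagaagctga
Trhde: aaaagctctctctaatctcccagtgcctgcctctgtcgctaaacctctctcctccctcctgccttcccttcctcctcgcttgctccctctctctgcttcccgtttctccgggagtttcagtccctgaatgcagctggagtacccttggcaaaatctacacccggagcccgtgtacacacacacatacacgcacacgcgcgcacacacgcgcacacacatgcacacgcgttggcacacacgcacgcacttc
Dapl1: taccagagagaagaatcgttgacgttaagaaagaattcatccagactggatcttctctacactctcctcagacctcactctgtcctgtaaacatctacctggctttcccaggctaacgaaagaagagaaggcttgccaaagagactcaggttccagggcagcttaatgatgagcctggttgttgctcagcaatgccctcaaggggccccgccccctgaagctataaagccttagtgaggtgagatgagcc

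Motif shares were counted on both strands in RefSeq windows of 300 bases, 250 before and 50 after each start. There were 165 windows of 121 genes that rose at least 2-fold, 158 windows of 113 genes that fell at least 2-fold, and 19177 windows of 15614 genes tested. The AP-1 motif TGANTCA was in 12.1% of windows of rises, 3.16% of falls and 6.9% of all. The kB motif was in 16.4%, 5.7% and 9.55%. The shares in the same order were as follows for the STAT motif TTCNNNGAA (11.5%, 8.23% and 7.66%), for the cyclic AMP element TGACGTCA (4.24%, 0.633% and 2.37%), the E-box CACGTG (9.7%, 9.49% and 8.24%), the OTX motif TAATCC (7.27%, 9.49% and 6.42%), the antioxidant element TGACNNNGC (11.5%, 11.4% and 13.2%) and the heat shock element GAANNTTC (5.45%, 8.86% and 6.72%). Several of these motifs share letters and can lie over each other, windows of 1 gene can overlap, and the shares are a description with no test.

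Genes of the visual cycle fell together in counts. Of 10 measured members 8 fell and 0 rose, against 8.53% of all genes that fell, and the list's median difference was -0.44 beside -0.01 for all genes. The 28 RPE markers, which include most of this list and several melanosome genes, fell as well. Among them 17 were called lower and 2 higher in the RPE, with a median difference of -0.32. Rpe65, the isomerase that makes 11-cis retinol, read 12.87, 12.93, 12.86 and 12.95 in the controls and 12.42, 12.26, 11.99 and 12.42 after light. Its groups did not overlap, and it fell 1.55-fold (log2 -0.63, SE 0.10, adjusted p = 0.00146). With all 16 arrays in 1 fit the call of Rpe65 was lost (adjusted p = 0.0581). Rdh11, a retinol dehydrogenase, had the largest fall of the list, from 8.77, 8.85, 8.89 and 8.88 to 7.91, 8.10, 7.66 and 8.09 (1.88-fold, adjusted p = 0.000194). Rlbp1, the carrier of 11-cis retinal, fell 1.64-fold, and Rrh, the opsin peropsin, 1.60-fold. Stra6, the receptor that takes up retinol from the blood (-0.52), Lrat, which makes retinyl esters (-0.36), Rdh10 (-0.34) and Rdh5 (-0.29), both retinol dehydrogenases, also fell. Rgr, a light-driven retinal isomerase, differed by -0.14 and Ttr, the thyroxine and retinol carrier, by -0.17, and neither was called. Without the 3 arrays that stood apart 5 of the 10 were called lower, as with all 16 arrays in 1 fit, and the list's median without the 3 arrays was -0.46.

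Melanosome genes were lower too, in mice that make no melanin. Of 14 members 10 fell and 0 rose, with a median of -0.41. Tyr, tyrosinase, the first enzyme of melanin synthesis, read 10.18, 10.04, 10.34 and 10.22 in control and 9.28, 9.15, 8.73 and 9.36 in light-exposed RPE. All light arrays of Tyr were below all controls (2.09-fold, log2 -1.06, SE 0.13, adjusted p = 0.000398). Tyrp1, a later enzyme of the pathway, fell 1.81-fold from 12.23 ± 0.07 to 11.38 ± 0.14 (SD, n = 4, adjusted p = 9.54e-05). Oca2 and Slc45a2, transport proteins of the melanosome membrane, changed by -0.69 and -0.61, and Mlana and Pmel, structural proteins of early melanosomes, by -0.62 and -0.53. Dct, the tautomerase of the pathway, stood apart at -0.03 and was not called. These genes are also expressed by choroidal melanocytes, whose marker list shares Tyr, Tyrp1, Mlana, Slc45a2, Pmel, Dct and Gpr143 (-0.40, not called) with this one. Of its 13 members 7 fell and 1 rose, with a median difference of -0.41. The median level of that list per array lay at 8.30 to 8.53 in control and 8.48 to 8.97 in light-exposed RPE, opposite in direction to the median difference. Of its members outside the melanosome list, Sox10 (-0.41) and Kit (-0.73) fell, Gpnmb (0.97) rose, and Ednrb, Mc1r and Trpm1 were not called. The part of melanocytes in the result was not tested.

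**Figure D3:**
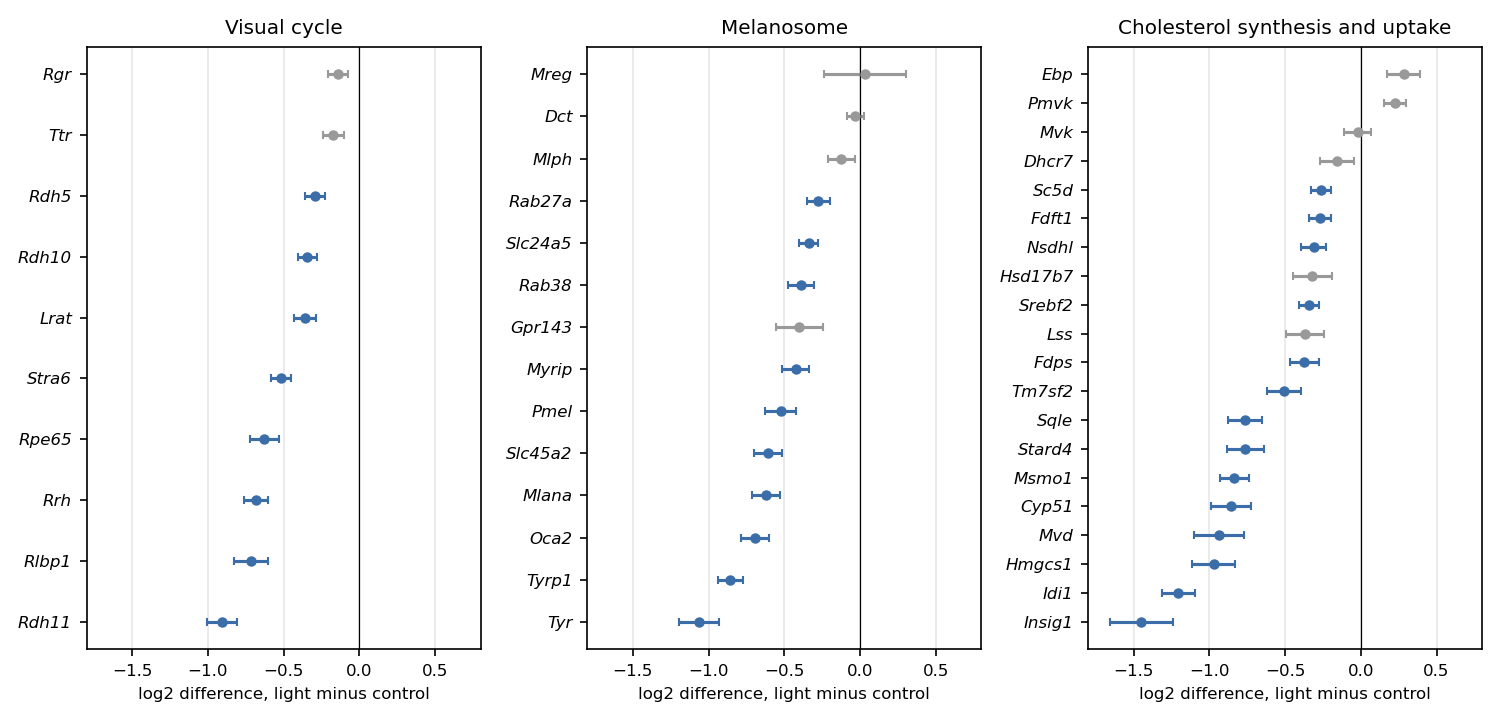
Difference of light-exposed and control RPE on the log2 scale (x axis, point and SE, 4 arrays per group) for each measured gene of the visual cycle, the melanosome and cholesterol synthesis and uptake. Blue points were called at an adjusted p under 0.05 and grey points were not. The 8, 10 and 14 called genes of the lists are all lower, and the falls of cholesterol genes reach -1.45 for Insig1.

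Transport genes of the epithelium changed in both directions, more often downward: 10 of 23 fell and 2 rose, 52.2% called beside 17.6% of all genes. Slc39a12, a zinc transporter, showed the largest fall of this list, from 10.37, 10.33, 10.34 and 10.29 in control RPE to 8.95, 8.69, 8.22 and 9.08 after light (3.03-fold, adjusted p = 0.000117). Slc4a5, a sodium bicarbonate cotransporter, fell 2.25-fold. The membrane carbonic anhydrases Car14 and Car12, which interconvert carbon dioxide and bicarbonate at the cell surface, fell 2.00-fold and 1.93-fold. Falls of a smaller size were those of Trpv4, a calcium channel (-0.72), Bsg, the partner of lactate transporters (-0.43), Slc16a1, a lactate transporter (-0.37), and Kcnj13, the apical potassium channel Kir7.1 (-0.34). Slc12a2, the sodium, potassium and chloride cotransporter, rose by 0.72, and Slc26a7, an anion exchanger, by 0.39. Best1, the chloride channel bestrophin 1, differed by 0.03, Aqp1 by 0.01 and Slc2a1, the glucose transporter GLUT1, by 0.00, none of them called.

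Of 14 genes of outer segment uptake 5 fell and 2 rose, 50% called beside 17.6% of all genes. Mertk, the receptor kinase needed for engulfment, read 10.90, 10.72, 10.65 and 10.75 in control and 10.22, 10.15, 10.14 and 10.35 in light-exposed RPE (1.45-fold, log2 -0.54, SE 0.08, adjusted p = 0.000978), with no overlap. Itgav and Itgb5, the subunits of the integrin that binds outer segments, fell by 0.40 and 0.38, Scarb1, a scavenger receptor for lipoproteins, by 0.72, and Myo7a, a motor that moves phagosomes, by 0.51 on the log2 scale. In the other direction went Pros1, protein S, a bridging ligand of Mertk, at 6.76, 7.09, 6.96 and 6.43 in control and 8.61, 8.67, 8.84 and 8.07 in light-exposed RPE (3.34-fold, adjusted p = 0.00015). Gas6, the other ligand of that receptor, differed by -0.07 and Mfge8, the bridging ligand of the integrin, by 0.24, neither called. Of the other receptors, Axl and Tyro3, kinases related to Mertk, differed by 0.05 and -0.19 and the scavenger receptor Cd36 by 0.28, none called. Cd36 was dim, at 5.49 in control RPE, so that its lack of a call says little.

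Among 12 transcription factors of RPE identity 2 fell and 1 rose, 25% called beside 17.6% of all genes. Mitf, the master regulator of pigment cell genes, fell 1.68-fold, from 10.50, 10.35, 10.59 and 10.50 to 9.75, 9.73, 9.65 and 9.80, with little spread in either group (adjusted p = 8.33e-05). Otx2, a homeobox factor of the RPE and the photoreceptors, fell by 0.27 on the log2 scale (adjusted p = 0.0188) and lost its call without RPE control 4 (adjusted p = 0.055), after quantile normalization (adjusted p = 0.0551) and without the 3 arrays that stood apart (adjusted p = 0.116). Tfec, a relative of Mitf, rose 1.38-fold from a dim level (adjusted p = 0.0315). Its call was lost without RPE control 2, 3 or 4 or RPE light 1 or 3 (adjusted p between 0.067 and 0.0854), and without the 3 arrays (adjusted p = 0.209). Pax6, Sox9 and Lhx2 were not called, with differences of -0.08, -0.12 and -0.21.

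Of 22 junction genes 6 fell and 2 rose, 36.4% called beside 17.6% of all genes. Only 1 rose without any single array among RPE control 2 and 4 and RPE light 2, 3 and 4, or without the 3 arrays that stood apart. Besides Cldn2 the claudin Cldn1 fell, from 11.69, 11.69, 11.67 and 11.76 to 10.88, 11.05, 10.81 and 11.005 (1.70-fold, adjusted p = 7.56e-05). The junctional adhesion molecules Jam3 and Jam2 fell 2.35-fold and 2.21-fold, and Cgn, the junction plaque protein cingulin, by 0.64 on the log2 scale. Not every member of these families was called. Cldn19, a claudin of the RPE, read 6.58 in control RPE, far below Cldn1, and differed by -0.03. Cldn3 differed by -0.14, F11r, a further junctional adhesion molecule, by -0.26, and Cdh1, E-cadherin, by 0.13. Tjp1, the scaffold ZO-1, differed by -0.07 and Ocln, occludin, by -0.26. None of these genes, Cldn19 included, was called. Cdh3, P-cadherin of the RPE, rose by 0.76 and Ctnnb1, beta-catenin, by 0.24. Of 21 genes of epithelial to mesenchymal change 6 rose and 2 fell, 38.1% called beside 17.6% of all genes. Vim, the intermediate filament vimentin (0.92), Cdh2, N-cadherin (0.61), Fn1, fibronectin (0.54), and Tgfb2 (0.54) rose. Acta2, smooth muscle actin, the best known mark of that change, fell 2.86-fold, from 10.09, 9.92, 10.27 and 9.84 to 8.46, 8.61, 7.97 and 9.004 (adjusted p = 0.000442), and the matricellular gene Ccn1 fell 2.07-fold. Acta2 is also made by muscle and pericytes, and the median of 15 muscle markers lay at 6.40 to 6.63 in control and 6.32 to 6.66 in light-exposed RPE. Without RPE control 4, without RPE light 3, or without the 3 arrays that stood apart, 3 of the mesenchymal genes were called higher.

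Protease and matrix genes were among the strongest changes, but most measured members of these families were not called. The shares called were 40% of metalloproteinases, activators and inhibitors, 42.9% of serpins and 32.3% of matrix genes, beside 17.6% of all genes. Of 25 metalloproteinases, plasminogen activators and inhibitors 7 rose and 3 fell. Plau, the urokinase plasminogen activator, rose by 1.15 and Mmp19 by 0.97. Mmp9 and Mmp2, the gelatinases, differed by 0.16 and 0.05 and Mmp13, a collagenase, by -0.13, none called. Timp3, the metalloproteinase inhibitor that the RPE deposits in its basement membrane, fell by 0.65, and Timp2 by 0.78. Of 14 serpins 5 rose and 1 fell. Beside Serpina3n and Serpinb1a the rises of Serpinb8 (0.54), Serpinb1b (0.50) and Serpinb6a (0.26) were small, and Serpinf1, pigment epithelium-derived factor, differed by -0.10 and was not called. The count of serpins that rose was 3 without any one of the 4 control arrays, without RPE light 2, without RPE light 3, or without the 3 arrays that stood apart. Of 31 matrix genes 5 rose and 5 fell. Tnc, tenascin C, rose 4.92-fold from 6.28, 5.76, 6.01 and 5.69 to 8.20, 7.99, 8.77 and 7.99 (adjusted p = 4.51e-05), and Fbln5, fibulin 5 of elastic fibres, 2.70-fold from 9.68 ± 0.11 to 11.12 ± 0.04 (SD, n = 4). Col4a3 and Col4a4, collagen chains of basement membranes, fell by 0.69 and 0.66.

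Genes of NF-kB, a family of transcription factors switched on by cytokines and injury, changed in 1 direction. Of 21 members 14 rose and 0 fell, against 9.08% of all genes that rose, with a median of 0.49. The subunits Rel (0.79), Nfkb2 (0.84), Relb (0.77) and Rela (0.38) rose. So did feedback inhibitors, among them Nfkbia, which holds NF-kB in the cytoplasm (1.13), Tnfaip3, the deubiquitinase A20 (0.95), and the nuclear regulator Bcl3 (1.29). Birc3, an inhibitor of apoptosis, read 7.15, 6.89, 6.84 and 6.79 in control and 8.24, 8.51, 8.29 and 8.37 in light-exposed RPE (2.71-fold, adjusted p = 1.31e-05). The adhesion molecule Icam1 rose by 0.89, less than Vcam1.

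Some genes of cytokine signalling through gp130 and the STAT3 factor were higher, at several steps. Of 21 genes 8 rose, 0 fell and 13 were not called, 38.1% called beside 17.6% of all genes. Among ligands, Il6 stood at 3.36, 3.40, 3.25 and 3.58 in control and 5.05, 4.60, 5.61 and 5.86 in light-exposed RPE (3.69-fold, adjusted p = 0.000428), a dim gene whose fold is uncertain, and Lif rose by 0.54, also from a dim level. The ligands Osm, Il11 and Clcf1 were not called, with differences of -0.002, -0.007 and 0.252. Of the receptors, Osmr (1.45), Lifr (1.37), Cntfr (0.98) and the shared subunit Il6st (0.41) rose. Stat3 itself rose 2.75-fold, from 8.69, 8.83, 8.75 and 8.78 to 10.12, 10.29, 10.30 and 10.18, with a spread far below the change (adjusted p = 1.79e-06). Socs3, its feedback inhibitor, differed by 0.39 and was not called. Socs1, Socs2, Cish, Pim1 and Pim3 of the same list were not called either.

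Of 32 chemokines and other cytokines 9 rose and 1 fell, 31.2% called beside 17.6% of all genes. Ccl2, which attracts monocytes, read 6.59, 6.92, 6.54 and 6.62 in control and 8.52, 8.40, 8.68 and 8.33 in light-exposed RPE (3.52-fold, adjusted p = 5.64e-06). Cxcl10, which attracts T cells, rose 2.87-fold, Csf1, the growth factor of macrophages, by 0.90, and Cxcl1, which attracts neutrophils, by 0.71. Il18 fell by 0.76. Il1b and Tnf were not called, with differences of 0.41 and 0.28. Without RPE control 1, 5 of the list rose. Markers of the cells that such signals attract were read beside these genes. Among 17 markers of neutrophils and monocytes there were 4 rises and 0 falls (Plac8 1.15, S100a9 0.93, S100a8 0.50 and Ccr2 0.41), and their median lay at 5.35 to 5.51 in control and 5.55 to 5.82 in light-exposed RPE, near the dimmest 25% of genes. That count was 2 without RPE control 1 or RPE control 4, and the share called in the main fit was 23.5%, beside 17.6% of all genes. Among 22 markers of microglia and macrophages there were 3 rises and 1 fall, a share called of 18.2%, near the 17.6% of all genes. Their medians were 6.85 to 7.26 in control and 6.91 to 7.53 in light-exposed RPE. Cd68 (2.76), Cd14, the lipopolysaccharide co-receptor (1.10), and Itgam (0.54) rose while Csf1r, the receptor for Csf1, fell by 1.14. The part of these cells in the rises of Mmp12, Cd68, Lcn2 and the chemokines was not tested.

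Interferon-induced genes rose in part: 11 of 25 rose and 0 fell, with a median of 0.31. Gbp3, a guanylate-binding GTPase, rose 3.64-fold from 7.99, 8.10, 8.00 and 8.05 to 9.98, 9.84, 9.77 and 10.00 (adjusted p = 3.86e-07). Ifit1, which binds viral RNA, rose 2.21-fold, Irgm1 by 1.10 and the factor Irf1 by 1.03. Rsad2, Usp18, Oas1a and Stat2 were not called, with differences of 0.31, 0.27, 0.23 and 0.23. Antigen processing genes rose more completely, 9 of 11 with 0 lower. Psmb8, a catalytic subunit of the immunoproteasome, rose 2.60-fold from 6.98, 6.89, 7.39 and 7.03 to 8.61, 8.33, 8.28 and 8.58 (adjusted p = 6.25e-05). Psmb9 (0.79) and Psmb10 (0.66), its other catalytic subunits, the peptide transporters Tap2 (0.75) and Tap1 (0.44) and the trimming peptidase Erap1 (0.91) rose as well. The 2 that were not called were B2m, the light chain of class I molecules (-0.14), and Nlrc5, their transcriptional activator (-0.12). Of 23 complement genes 2 rose, C4b 2.41-fold and Cfi, which inactivates C3b, 2.37-fold from a dim level. Of the same list 1 fell, Cd59a, which blocks the membrane attack complex, by 0.89. The 3 called of 23 are a smaller share than the 17.6% of all genes.

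Of 36 immediate early genes, which respond within minutes to hours of a stimulus, 4 rose and 2 fell, with a median of 0.01. The share called, 16.7%, was near the 17.6% of all genes. Cebpd, a factor of the acute-phase response, rose 3.27-fold from 7.41, 7.39, 8.05 and 7.63 to 9.11, 9.37, 9.65 and 9.20 (adjusted p = 9.07e-05), and Maff, a small Maf factor, 2.55-fold. Fosl2 (0.47) and Klf10 (0.45) rose and the phosphatases Dusp4 and Dusp6 fell by 0.57 and 0.52. Fos differed by -0.37, Jun by -0.13, Egr1 by -0.01 and Atf3 by -0.26, none called. Without RPE control 1, 7 members of this list fell.

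The largest coordinated rise in number of genes was in the making of proteins. Of 38 ribosome biogenesis genes 28 rose and 1 fell, with a median of 0.48. Nip7, a factor of ribosome assembly, read 8.10, 8.19, 8.30 and 8.26 in control and 9.23, 9.44, 9.15 and 9.14 in light-exposed RPE (2.04-fold, adjusted p = 4.21e-05). Rrs1, which brings ribosomal RNA and proteins together, rose 2.02-fold, and Nop58 and Fbl, core proteins of the methylation complex on ribosomal RNA, by 1.01 and 0.90. Polr1a, the largest subunit of RNA polymerase I, fell by 0.88, while Polr1b (0.43) and Polr1c (0.27) of the same enzyme rose. Of 31 cytosolic ribosomal proteins 23 rose and 0 fell, by small amounts with a median of 0.28. Rps19 rose 1.67-fold, from 9.14, 9.33, 9.26 and 9.41 to 9.94, 10.01, 10.13 and 10.03 (adjusted p = 0.000132), and Rpl14 1.64-fold. Of 30 tRNA synthetases and initiation factors 20 rose and 0 fell, with Rars, the arginyl-tRNA synthetase, 1.72-fold and Eif3b 1.54-fold higher.

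Of 31 constitutive proteasome subunits 19 rose and 1 fell. Psmc4, an ATPase of the regulatory particle, went from 10.22, 10.22, 10.23 and 10.22 to 10.74, 10.79, 10.93 and 10.83 (1.52-fold, adjusted p = 0.000143), and Psmd14, its deubiquitinase, rose 1.46-fold. Without the 3 arrays that stood apart, 12 ribosomal proteins, 11 translation genes and 11 proteasome subunits were called higher, with medians of 0.30, 0.31 and 0.27. Near-identical pseudogenes of ribosomal proteins can share probes with their genes, so that single values of that family are uncertain.

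Stress genes were divided. Of 33 genes of the unfolded protein and integrated stress response 12 rose and 4 fell. Eif2ak3, the sensor kinase PERK, rose 1.94-fold from 8.24, 8.21, 8.46 and 8.53 to 9.48, 9.22, 9.18 and 9.40 (adjusted p = 0.00015). Ern1, the sensor IRE1 (0.63), Ddit3, the factor CHOP (0.77), the chaperones Hyou1 (0.57) and Manf (0.41), and Asns, asparagine synthetase, 1.86-fold from a dim level, rose. Hspa5, the chaperone BiP, and Atf4 were not called, at 0.13 and -0.12, and Ppp1r15a, Phgdh, Psat1 and Ddit4 fell by 0.43 to 0.77. Of 20 heat shock chaperones 5 rose and 4 fell. Hspa9, the mitochondrial chaperone mortalin, rose 1.40-fold and Bag3, a co-chaperone, 1.33-fold, while Hspa8 fell by 0.28 and Hsp90aa1 by 0.33. Bag3 lost its call without the 3 arrays that stood apart (adjusted p = 0.0658). In that fit 2 chaperones rose and 2 fell.

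Of 32 antioxidant genes 8 rose and 6 fell, 43.8% called beside 17.6% of all genes. Gclc, the rate-limiting subunit of glutathione synthesis, rose 1.89-fold, from 8.89, 8.57, 8.89 and 8.87 to 9.61, 9.52, 10.30 and 9.46 (adjusted p = 0.00433), with RPE light 3 again the highest. Srxn1, sulfiredoxin (0.71), Sod2, the mitochondrial superoxide dismutase (0.61), and Gss (0.56) rose, whereas Nqo1, the glutathione transferases Gstt1 (-0.90) and Gstm1 (-0.51) and the metallothioneins Mt3 (-0.55) and Mt1 (-0.32) fell. Without the 3 arrays that stood apart, 3 genes of the list fell. Of 35 genes of iron and heme handling 5 rose and 5 fell, 28.6% called beside 17.6% of all genes. Hmox1, which breaks down heme and releases its iron, read 7.70, 7.88, 7.76 and 7.84 in control and 9.89, 9.90, 10.65 and 9.84 in light-exposed RPE (4.84-fold, adjusted p = 2.4e-05). Every light array was above every control array, and RPE light 3 stood above the other light arrays. Tfrc, the receptor that takes up transferrin, rose by 1.29, Steap4, a metalloreductase, by 1.10 and Slc39a14, an importer of zinc and iron, by 0.58. Heph, the ferroxidase hephaestin that helps iron leave the cell, fell by 0.86 and Ncoa4, the receptor for ferritin breakdown, by 0.60. Cp, ceruloplasmin, differed by 0.79, Fth1, a ferritin chain, by -0.16 and Slc40a1, the iron exporter, by -0.26, none called. The count of iron genes that fell was 3 without RPE control 1 or 3, without RPE light 1 or 3, or without the 3 arrays that stood apart.

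Genes of cholesterol synthesis and uptake fell: 14 of 20 were lower and 0 higher, with a median of -0.37. Insig1, the sterol-sensitive brake of the pathway and a target of its activator SREBP, was at 9.91, 10.77, 10.55 and 11.11 in control and 9.09, 9.29, 9.02 and 9.15 in light-exposed RPE (2.73-fold lower, log2 -1.45, SE 0.21, adjusted p = 0.00104). The controls varied by more than 1 on the log2 scale and the light arrays by less than 0.3, without overlap. Idi1, an isomerase of the isoprenoid steps, fell 2.31-fold, from 9.08, 9.54, 9.52 and 9.50 to 8.17, 8.18, 8.38 and 8.09 (adjusted p = 7.92e-05). Hmgcs1 (-0.97) and Mvd (-0.93) of the mevalonate steps and Sqle (-0.76), Cyp51 (-0.86) and Msmo1 (-0.83) of the sterol steps fell, as did the transcription factor Srebf2 (-0.34). Without the 3 arrays that stood apart 9 of the 20 fell, with a median of -0.38. Of 25 genes of fatty acid use 4 rose and 7 fell. Pparg, a nuclear receptor of lipid storage, rose 2.88-fold from 7.04, 6.73, 7.07 and 7.13 to 8.57, 8.31, 8.82 and 8.37 (adjusted p = 4.78e-05). Plin2, the coat protein of lipid droplets, rose 2.85-fold from 10.60 ± 0.08 to 12.11 ± 0.13 (SD, n = 4), and Angptl4, an inhibitor of lipoprotein lipase, by 1.25. The enzymes of fatty acid synthesis and desaturation Elovl6 (-0.99), Scd1 (-0.67) and Scd2 (-0.67), the carnitine palmitoyltransferase Cpt1a (-0.61), and Srebf1 (-0.42) fell. The count of falls in this list was 4 without the 3 arrays.

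Of 37 subunits of oxidative phosphorylation 2 fell and 0 rose, Ndufa1 1.22-fold and Cox7b 1.16-fold, and the list's median was -0.01. Both lost their calls without the 3 arrays that stood apart (adjusted p = 0.104 and 0.125), and Cox7b also lost it without any single array other than RPE light 1 (adjusted p between 0.0539 and 0.0808). With a spread trended on expression and robust to outlying genes, 6 subunits fell and 2 rose. Of 17 glycolysis genes 4 rose and 5 fell, 52.9% against 17.6% of all genes called. Pfkfb3, which makes the activator of phosphofructokinase, rose 2.59-fold from widely spread values, 5.77, 6.80, 6.21 and 6.83 in control and 7.75, 7.50, 8.45 and 7.39 in light-exposed RPE (adjusted p = 0.00658), and Ldha, lactate dehydrogenase A, by 0.47. Aldoc, aldolase C, fell 1.59-fold, Pfkl by 0.57 and Pfkm by 0.54. Only 2 glycolysis genes rose without the 3 arrays.

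Of 20 circadian clock genes 9 fell and 1 rose. Ciart, a repressor within the clock, fell 1.73-fold from 9.13 ± 0.19 to 8.34 ± 0.08 (SD, n = 4, adjusted p = 0.000368), Rorb 1.59-fold, Arntl, the activator BMAL1, by 0.67 and Cry1, a repressor, by 0.60. Nr1d1, the repressor REV-ERB alpha, rose by 0.34. Per1 and Per2, which respond to light in the master clock, were not called, with differences of -0.10 and -0.34. With the 3 arrays that stood apart left out, 5 clock genes fell and 0 rose. These genes follow the time of day, and the schedule of light and dark differed between the groups.

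Signalling genes of the BMP and Wnt families fell beyond Sostdc1. Of 31 members 12 fell and 4 rose. Bmp6, a ligand, went from 9.95, 9.88, 9.71 and 9.75 to 8.54, 8.46, 8.57 and 8.997 (2.27-fold lower, adjusted p = 0.000119), and the ligands Bmp2 (-1.02), Bmp7 (-0.80) and Bmp4 (-0.39) fell as well. Id3 (-0.79) and Id1 (-0.56), target genes of BMP signalling, Axin2 (-0.42), a target gene of Wnt signalling, and the secreted Wnt antagonists Sfrp5 (-0.93), Sfrp1 (-0.74) and Frzb (-0.60) were among the falls. The receptors Bmpr1a (0.19), Acvr1 (0.26) and Bmpr2 (0.30) rose. Only 1 member of the list was called higher without the 3 arrays that stood apart, and 2 where array medians were set equal or without any single array among RPE control 1, 2 and 3 and RPE light 1 and 3. Of 23 growth and vascular factors 4 fell and 1 rose, 21.7% called beside 17.6% of all genes. Vegfa, the vascular endothelial growth factor that the RPE supplies to the choroid, fell 1.85-fold from 10.02, 9.93, 9.90 and 10.10 to 9.13, 9.13, 8.91 and 9.22 (adjusted p = 7.92e-05), and Fgf1, an acidic fibroblast growth factor, 1.59-fold. Pdgfa and Bdnf fell by 0.47 and 0.35, and Hbegf rose by 0.37, a rise that was lost without any single array other than RPE control 3.

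Genes of cell death and its control were mixed. Of 17 p53 target genes 6 rose and 4 fell, with the death receptor Fas at 5.22, 5.75, 5.42 and 5.57 in control and 6.80, 7.29, 7.14 and 7.07 in light-exposed RPE (3.01-fold from a dim level, adjusted p = 4.89e-05). Gadd45b, a stress sensor, rose 2.86-fold, Plk2 by 1.36 and Gadd45a by 0.98. The falls of this list numbered 2 without RPE control 3 or 4, without RPE light 1 or 2, or without the 3 arrays that stood apart. Of 21 caspases, necroptosis, pyroptosis and BCL2 family genes 1 rose and 4 fell, 23.8% called beside 17.6% of all genes. Bid, which carries the death receptor signal to mitochondria, rose 1.64-fold from a dim level, and Bcl2l1, the survival factor BCL-XL, fell 1.43-fold, a fall that was lost without the 3 arrays (adjusted p = 0.0666). In that fit 3 genes of the list rose and 0 fell, and over the other fits the number that rose was between 1 and 4. Casp8 and Mlkl differed by 0.29 and 0.21, neither called.

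Of 19 S100 proteins and annexins, which bind calcium, 12 rose and 1 fell, with a median of 0.53. Anxa3 rose 3.79-fold, from 6.80, 7.53, 7.79 and 6.88 to 8.81, 9.11, 10.00 and 8.77 (adjusted p = 0.00154), S100a11 by 1.25 and Anxa5, which binds phosphatidylserine, by 0.96. S100a6 read 8.07, 8.84, 8.25 and 8.13 in control and 9.44, 10.73, 9.27 and 8.90 in light-exposed RPE. RPE light 2, the array with the highest cornea and ciliary markers, was the highest for S100a6. Its call (2.40-fold, adjusted p = 0.0291) was lost without RPE control 1, 3 or 4 or RPE light 1 (adjusted p between 0.0504 and 0.0792), and with a trended, robust spread (adjusted p = 0.082). Of 28 lysosomal genes 7 rose and 5 fell, with Gpnmb, a glycoprotein of melanosomes and phagosomes, 1.96-fold and Ctsk, cathepsin K, 1.65-fold higher, and Npc2 (-0.48), Man2b1 (-0.46) and Ppt1 (-0.36) lower. The falls numbered 3 without the 3 arrays, and the share of lysosomal genes called in the main fit was 42.9%, beside 17.6% of all genes. Of 26 cell cycle genes 3 rose and 5 fell: Mcm3 of the replication helicase rose 1.41-fold and Cdk1 fell 1.59-fold, the latter with overlapping arrays at 8.72, 8.05, 8.69 and 8.37 in control and 7.60, 8.06, 7.56 and 7.95 in light-exposed RPE. Cdk1 was not called without RPE control 1 or 3 or RPE light 1 or 3 (adjusted p between 0.0528 and 0.0604), and Mcm3 was not called without the 3 arrays (adjusted p = 0.0698). In that fit 1 cell cycle gene rose, and 3 fell without RPE control 1 or 3 or RPE light 3. The share of cell cycle genes called in the main fit was 30.8%, beside 17.6% of all genes.

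**Figure D4:**
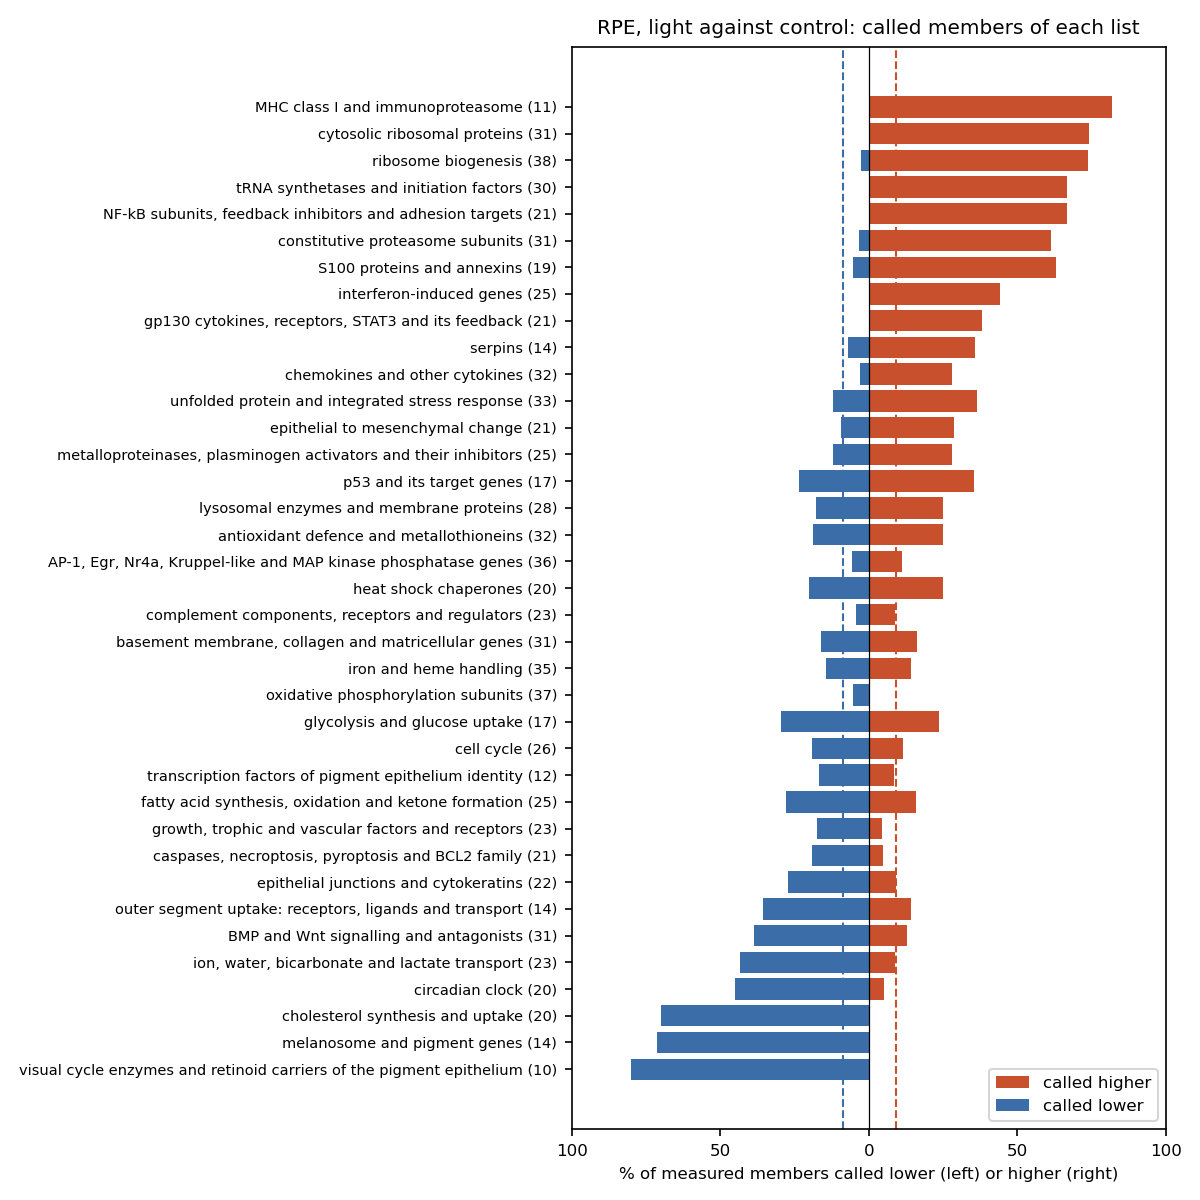
Share of the measured members of each gene list (number in brackets) that were called higher (red, right) or lower (blue, left) in light-exposed against control RPE, in percent, with dashed lines at the shares of all genes, 9.08% higher and 8.53% lower. The longest red bars belong to antigen processing and to the making of proteins, and the longest blue bars to the visual cycle, the melanosome and cholesterol synthesis.

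Photoreceptor RNA in the RPE samples was read beside these lists. Of 25 rod markers 4 fell and 0 rose (Guca1a -1.50, Gucy2f -1.04, Slc24a1 -0.77 and Abca4 -0.73), and 11 fell when RPE light 1 was left out, 8 without the 3 arrays that stood apart. The share of rod markers called in the main fit, 16%, was near the 17.6% of all genes. Of 12 cone markers 5 fell and 1 rose, and their median lay at 7.24 to 7.37 in control and 6.66 to 6.95 in light-exposed RPE. Among them Opn1sw, the short-wavelength opsin, fell by 1.21, and Gnb3, a transducin subunit, rose by 1.25. The marker lists of endothelium, of fibroblasts and pericytes, and of ganglion cells had 1 of 18, 4 of 16 and 0 of 12 genes called, beside 17.6% of all genes.

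The response of the RPE was then set against that of the NSR of the same mice, in a fit of all 16 arrays that tests the difference of the responses for each gene. The 2 responses differed for 2635 of 19938 genes (13.2%): the log2 difference was higher in the RPE for 1029 (5.16%) and lower for 1606 (8.05%). In the NSR 3013 genes were called (15.1%), 1769 higher (8.87%) and 1244 lower (6.24%). Of the 1810 genes that rose in the RPE 644 also rose in the NSR, 35.6% of the RPE's and 36.4% of the NSR's list, and 55 fell there. Of the 1700 that fell in the RPE 290 also fell in the NSR, 17.1% and 23.3% of the lists, and 131 rose there.

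The largest differences in favour of the RPE were those of Mmp3 and Serpinb1a. Mmp3 changed by 0.07 in the NSR and Serpinb1a by -0.02, neither called, so that the responses differed by 5.42 (SE 0.25, adjusted p = 6.32e-10) and 5.20. Gsta3 differed by -0.07 in the NSR, and its response was 3.38 higher in the RPE. Mmp12 (NSR 0.64), Serpina3n (NSR 2.87) and Lcn2 (NSR 2.12) rose in both tissues, by 3.96, 3.14 and 2.45 more in the RPE. Tnc, Pparg and Il6 were not called in the NSR and had responses 2.03, 1.70 and 1.61 higher in the RPE. Glb1l3, a galactosidase-like gene, belongs to this side because it fell 5.74-fold in the NSR, whereas in the RPE it read 4.70, 4.41, 4.84 and 4.63 in control and 4.71, 4.90, 4.86 and 4.42 after light. That is a dim gene in the RPE. As lists these families went both ways: the response was higher in the RPE for 5 and lower for 4 of the 25 metalloproteinases, activators and inhibitors, and higher for 2 and lower for 4 of the 14 serpins. Timp2 (-1.46), Timp3 (-1.39), Mmp14 (-1.07) and Serping1, the C1 inhibitor (-1.63), had lower responses in the RPE.

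Other genes answered in the NSR and little or not in the RPE. Mx2, an interferon-induced GTPase, rose 10.2-fold in the NSR and 1.44-fold in the RPE, a difference of -2.82 (SE 0.20, adjusted p = 7.15e-08). Its RPE call was lost without RPE control 1 or 3 (adjusted p = 0.0688 and 0.0566). Ddx58, the viral RNA sensor RIG-I, rose 7.72-fold in the NSR and stood at 8.94, 8.89, 9.07 and 8.74 in control and 9.02, 9.22, 9.32 and 9.01 in light-exposed RPE, not called. Of the 25 interferon-induced genes, 22 rose in the NSR with a median of 2.04, and the difference of responses was called lower in the RPE for 20. Myc, a factor of growth and ribosome production, rose 6.73-fold in the NSR and read 5.75, 6.23, 6.48 and 6.03 in control and 6.04, 5.79, 6.34 and 6.28 in light-exposed RPE, with the groups interleaved. Mt2, a metallothionein, rose 6.13-fold in the NSR and lay between 12.33 and 12.49 in all 8 RPE arrays. Slc14a1, a urea transporter, rose 5.94-fold in the NSR and differed by -0.23 in the RPE (SE 0.32, not called). Starting levels differed between the tissues. Mt2 had a mean of 12.46 in control RPE, above 8.71 in control and 11.32 in light-exposed NSR. Ddx58 had a mean of 8.91 in control RPE, higher than in control NSR and close to 9.55 in light-exposed NSR. For Mx2, Myc and Slc14a1 the control RPE mean lay further below the light-exposed NSR mean. The part of these starting levels in the contrast was not tested. Immediate early genes differed likewise as a list, with 22 of 36 higher in the NSR against 4 in the RPE, and a difference called lower in the RPE for 17.

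Falls were also compared. Sostdc1 changed by -0.15 in the NSR, not called, and the difference of responses was -2.51 (SE 0.20). Of the 20 cholesterol genes, the NSR had 2 higher and 2 lower, and the response was called lower in the RPE for 13. For Rpe65 the NSR difference was -0.99 and the difference of responses 0.36 (SE 0.32, adjusted p = 0.544). Rlbp1 and Rrh fell more in the NSR, 2.90-fold and 3.18-fold, than in the RPE, with differences of 0.82 and 0.99 that were called. RPE markers in the NSR samples moved with these falls: 8 of 28 were called lower and 2 higher there, and their median was 6.45 in control and 6.20 in light-exposed NSR (means of 4 arrays). The part of RPE carried over into the NSR samples in these values was not tested. Mertk moved in opposite directions: it rose 1.60-fold in the NSR and fell in the RPE, a difference of -1.22 (SE 0.14). Cldn1, Bcl2l1, Epha7 and Ccn1 were likewise called higher in the NSR and lower in the RPE, with differences of -1.30, -1.02, -2.23 and -1.92. For several genes that rose in both tissues the difference of responses was not called. Pros1 rose 3.34-fold in the RPE and 3.30-fold in the NSR (difference 0.02, SE 0.21), Hmox1 4.84-fold and 6.70-fold (difference -0.47, SE 0.24, adjusted p = 0.242), and Cxcl10 2.87-fold and 2.73-fold (difference 0.08, SE 0.31).

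**Figure D5:**
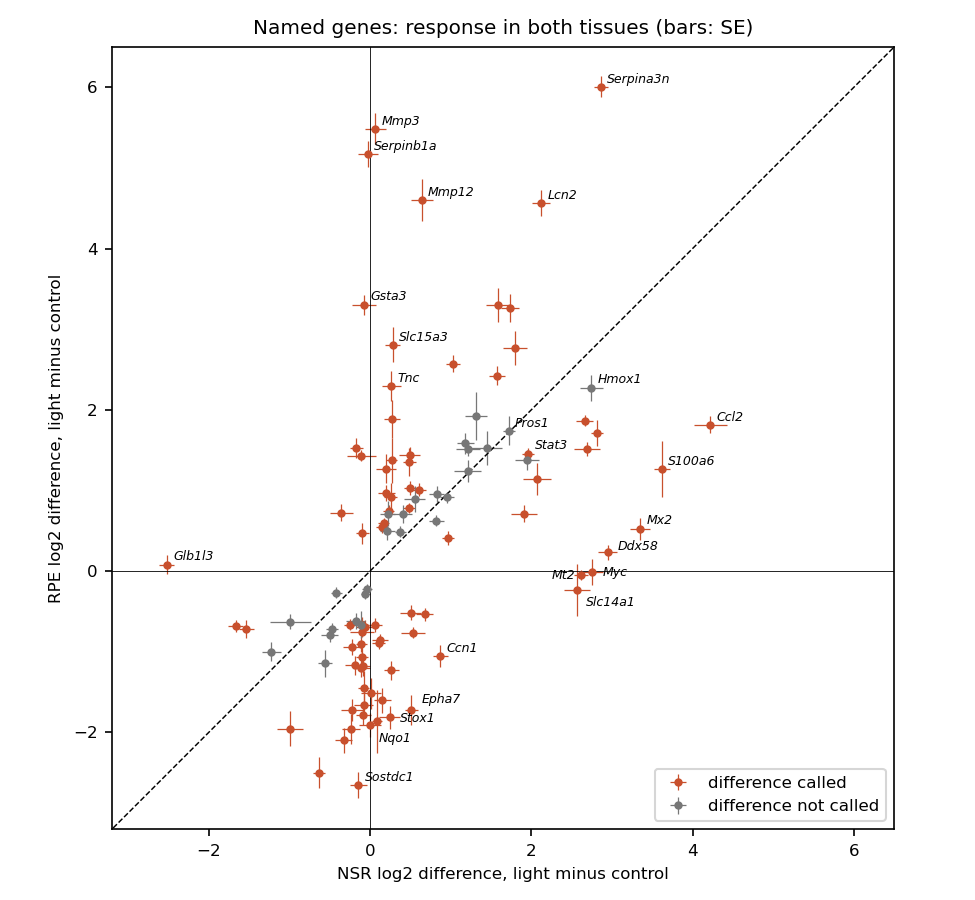
Difference of light-exposed and control arrays on the log2 scale in the NSR (x axis) and in the RPE (y axis) for the 106 genes named by rule, as points with SE in both directions, and a dashed line where both are equal. Red points had a called difference of responses. Mmp3, Serpinb1a and Gsta3 lie near 0 on the NSR axis and high on the RPE axis, and Mx2, Ddx58, Myc, Mt2 and Slc14a1 lie near 0 on the RPE axis.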

How the data were processed

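The 16 samples are 1-colour Affymetrix Mouse Gene 1.0 ST arrays of amplified RNA (Ovation Pico WTA, per the labels' protocols). The submitters' processing notes name RMA and Partek 6.6 for the values the authors deposited, which are read here as log2 from their range (2.20 to 13.84), since the scale is not stated. The genome build is not given in the sources used here. Of 35556 transcript clusters, 21789 have 1 gene symbol, 1621 several and 12146 none, and the brightest cluster over all arrays stood for each of 19938 genes (999 had more than 1). No 2 of the 120 pairs of arrays were identical.

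RPE arrays were compared with limma 3.58.1 in R 4.3.3 (lmFit and eBayes on 8 arrays, Benjamini-Hochberg over all genes), and the difference of responses on 16. The steps were tested on simulated data. Genes were named by rule: the 12 largest called rises and falls without overlapping arrays (predicted genes left out), the 4 largest called changes of each RPE list and 2 of each pathway list, and the 6 largest differences of response each way. Other genes are members of the lists, chosen after their values were seen. The members and all 55 lists (1103 of 1210 entries measured) were chosen with earlier results of these data known. RPE of control and light mice with the same number came from different mice, so that the number does not pair them. Their deviations correlated between -0.01 and 0.04, and those of NSR and RPE of the same mouse between -0.01 and 0.05. This correlation therefore cannot tell paired from unpaired arrays. NSR and RPE with the same identifier came from the same mouse, and the fit with mouse as a block is given in the closing section.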

Additional observations from a re-analysis of the deposited data

Results flagged for a closer look

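In groups of 4 arrays, 1 array stood apart from the other 3 by Dixon's critical value for the gap over the range in 15 of 248 groups tested, and chance alone gives about 1 in 20. Higher than the rest of its group was Gbp5 in RPE light 2 (7.49 against 6.93 to 6.995), Tyrp1 in RPE control 3 (12.34 against 12.19 to 12.20) and Hmox1 in RPE light 3 (10.65 against 9.85 to 9.90). Lower than the rest of its group was Cd68 in RPE control 1 (7.48 against 7.96 to 8.02), Car12 in RPE light 3 (9.78 against 10.18 to 10.24), Ccn1 in RPE control 1 (10.47 against 10.84 to 10.90) and Erap1 in RPE control 2 (7.96 against 8.11 to 8.14). So was Gclc in RPE control 2 (8.57 against 8.87 to 8.89), Bag3 in RPE control 1 (7.99 against 8.22 to 8.26), Idi1 in RPE control 1 (9.08 against 9.50 to 9.54) and Psmd14 in RPE control 4 (10.42 against 10.57 to 10.58). Among marker medians, bipolar markers stood apart in RPE light 1 (7.25 against 6.28 to 6.41), lens markers stood apart in RPE control 2 (7.48 against 6.16 to 6.25), cornea and ciliary markers stood apart in RPE light 2 (7.31 against 6.13 to 6.30), erythroid markers stood apart in RPE light 1 (6.98 against 6.55 to 6.59). Removing RPE control 2, RPE light 1 and RPE light 2, which hold all 4 of these marker medians, kept the direction of every called gene named by rule.

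The light response of 80 of the 106 genes named by rule differed between the RPE and the NSR in limma's test of that difference over 16 arrays at an adjusted p under 0.05. These genes were picked for large changes in the RPE, and the 6 largest differences each way by this same test. The high share therefore follows in part from the choice. Over all genes the responses differed for 2635 of 19938 (13.2%). Values are the log2 response in the RPE minus that in the NSR. The response was at least 2 higher in the RPE for Mmp3 (5.42), Serpinb1a (5.20), Mmp12 (3.96), Gsta3 (3.38), Serpina3n (3.14), Glb1l3 (2.60), Slc15a3 (2.53), Lcn2 (2.45) and Tnc (2.03). It was between 1 and 2 higher for Timp1 (1.72), Pparg (1.70), Il6 (1.61), Sulf2 (1.54), Fbln5 (1.54), Vcam1 (1.53), Pfkfb3 (1.10), Ctsk (1.08) and C4b (1.08). Smaller positive differences were those of Rrh (0.99), Cd68 (0.96), Birc3 (0.95), Maff (0.86), Gbp5 (0.85), Rlbp1 (0.82), Gpnmb (0.77), Gclc (0.66), Tfec (0.56), Nip7 (0.53), Rps19 (0.51), Psmc4 (0.43), Rrs1 (0.40), Psmd14 (0.40) and Rars (0.30). On the other side, the response in the RPE was at least 2 lower for Mx2 (-2.82), Slc14a1 (-2.80), Myc (-2.76), Ddx58 (-2.72), Mt2 (-2.67), Sostdc1 (-2.51), Ccl2 (-2.40), S100a6 (-2.36), Epha7 (-2.23) and Stox1 (-2.06). Next came Syt1 (-1.95), Ccn1 (-1.92), Nqo1 (-1.91), Lrit2 (-1.86), Trhde (-1.77), Slc39a12 (-1.75), Tmem72 (-1.72), Stk33 (-1.70), Pdgfd (-1.58), Acta2 (-1.53), Cldn2 (-1.50) and Jam3 (-1.49). Those of Insig1 (-1.37), Cldn1 (-1.30), Mertk (-1.22), Anxa2 (-1.20), Gadd45b (-1.17), Cebpd (-1.10), Idi1 (-1.09), Bmp6 (-1.09) and Bcl2l1 (-1.02) followed. Smaller negative differences were those of Vegfa (-1.00), Slc4a5 (-0.98), Tyrp1 (-0.98), Tyr (-0.96), Dapl1 (-0.96), Ifit1 (-0.92), Gbp3 (-0.80), Rdh11 (-0.80), Fgf1 (-0.73), Car12 (-0.73), Mitf (-0.65), Oca2 (-0.63), Rorb (-0.58), Bag3 (-0.56), Stat3 (-0.50) and Aldoc (-0.41).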

How the results depend on the processing

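Of the 101 called genes named by rule, 90 kept their call under all 18 alternatives to the main analysis, 11 lost it under at least 1, and 0 changed direction. The requirement of a 2-fold change is not among these 18. A gene removed with the dimmest 25%, such as Il6, has no value in that fit and was not counted as lost there. Beside 1810 genes higher and 1700 lower, requiring a 2-fold change as well left 152 and 143, and leaving out RPE control 2, RPE light 1 and RPE light 2 gave 998 and 1058, in a fit of 5 arrays. Leaving out 1 array at a time gave 1484 to 1646 higher and 1429 to 1586 lower. Centring each array on its median gave 1718 and 1758, quantile normalization 1809 and 1756, and all 16 arrays in 1 fit 2121 and 1976. With the replicate number as a block there were 1522 and 1462. For the difference of responses, 1029 higher and 1606 lower in the RPE became 888 and 1396 with a replicate block of mouse, and 800 to 916 and 1285 to 1574 when 1 mouse was left out. The signs that turned belonged to genes not called in the RPE: Glb1l3 at -0.078 without the 3 arrays, Slc14a1 at 0.029 without RPE light 4 (range -0.454 to 0.029 with 1 array left out), Mt2 at 0.042 after quantile normalization, and Myc (range -0.134 to 0.111 with 1 array left out) at 0.027, 0.111, 0.016 and 0.099 without RPE control 2, RPE control 3, RPE light 1 or RPE light 2, and 0.225 without the 3 arrays. The cause was not tested. List medians moved beyond the spread in 19 of 1045 recomputations and list counts by more than 1.5-fold in 259 of 2090. Of the called genes of at least 2-fold, 15 were among the dimmest 25% in control RPE, where folds are least certain.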
